A study of Arabidopsis thaliana with 6 samples.

Results

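The transcripts described here are the 165 probe sets whose signal was higher in phosphate-starved shoots than in nutrient-replete shoots of Brassica oleracea, both on the replicate 1 arrays and on the replicate 2 and 3 arrays. They were chosen by the measured P-starved minus replete differences of all 6 arrays, so those differences are given as a description, without a test. A probe set is the group of short probes on an Affymetrix ATH1 array that together report 1 transcript. Of the 19578 non-control probe sets with a value on every array, 10894 had a mean signal of 50 or more over the 6 arrays, and these were eligible. A member had a P-starved minus replete difference of 0.5 or more on log2(signal + 16) for replicate 1. For replicates 2 and 3 its difference of group means was also 0.5 or more, and both P-starved arrays lay above both replete arrays.

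The plants were Brassica oleracea var. alboglabra of the doubled haploid line A12dH, raised on compost under 16 h days at 22 °C, and the RNA was from shoot tissue. GEO's organism field names Arabidopsis thaliana, for which the arrays were made, while the sample characteristics name Brassica oleracea. The phosphate-starved (P-starved) and the nutrient-replete (replete) group had 3 arrays each, numbered 1 to 3 in their labels. Line, tissue and growth conditions are given alike for both groups, and the sources used here do not state how long or by what means phosphate was withheld. Nothing says whether the samples of a group were separate plants or harvests, so the spread between them may be technical. In the whole tissue, fewer cells of a type and less RNA per cell cannot be told apart.

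ATH1 probes were designed for Arabidopsis thaliana, so a gene name below stands for the Arabidopsis gene that a probe set was made for and cannot tell the several Brassica copies of a gene apart. The replicate 1 arrays list 22810 probe sets and the replicate 2 and 3 arrays 19642 of them, and log2 levels correlated across probe sets with r of 0.903 to 0.927 within each kind of array and 0.608 to 0.633 between the kinds. The labels call all 6 arrays ATH1 and give no reason for this split, so the kinds of array named below, replicate 1 on the one side and replicates 2 and 3 on the other, are told from the values alone. The differences in the rule compare signals within a kind, while its minimum mean signal is taken over both kinds and both groups. A member can therefore be bright on 1 kind of array alone. AT3G23540 had 179.7, 1.9 and 26.7 in P-starved replicates 1 to 3, against 119.8, 0.8 and 1.2 in replete ones. The limma fit by group alone and the statements on overlap over all arrays also compare between the kinds. Of 10 shoot markers 3 were measured under a name, the light-harvesting gene LHCB4.1 and the Calvin cycle genes SBPASE and PRK. Their summed signal was 8302, 3024 and 2579 in P-starved replicates 1 to 3, against 10760.4, 2599 and 3066 in replete ones. Of 6 root markers 2 were measured, PYK10 at 63.7 to 133.7 and EXPA7 at 6.7 to 25.2. The summed signal of the root markers was 108.4, 82.2 and 142.6 in P-starved replicates 1 to 3, against 84.1, 70.9 and 111.3 in replete ones, and the part of either sum in the results below was not tested.

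Plants that run short of phosphate take up more of it with high-affinity transporters, free it from organic compounds with secreted phosphatases and replace membrane phospholipids by other lipids. Much of this is switched on by the transcription factor PHR1, which SPX domain proteins hold back while phosphate is plentiful. Leaves meanwhile slow their growth and often store sugars, starch and anthocyanin.

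The rule picked 165 of 10894 eligible probe sets, which is 1.51%. With the labels swapped, so that P-starved had to be lower, it picked 207 or 1.90%. More probe sets therefore met the same rule in the opposite direction, and the number of members by itself does not set the higher direction apart. The counts depend on the offset, and with 64 in place of 16 there were 48 members and 107 probe sets in the swapped direction. On its own, the replicate 1 condition of the rule was met by 1399 probe sets in the higher direction (12.8%) and by 1436 in the lower (13.2%). The condition for replicates 2 and 3 was met by 1131 in the higher direction (10.4%) and by 1053 in the lower (9.67%). Of the 1131 probe sets that were higher on the replicate 2 and 3 arrays, 14.6% were also higher by 0.5 on the replicate 1 arrays and 12.5% were lower by as much there. In the swapped direction the same shares were 19.7% and 9.69%. Over the eligible probe sets the replicate 1 difference and the replicate 2 and 3 difference correlated with r = 0.072 and rho = 0.077 (n = 10894 probe sets, which share arrays and are no independent replicates). Read the other way, of the 1399 probe sets that were higher on replicate 1, 11.8% were higher and 7.29% lower on replicates 2 and 3.

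**Figure D1:**
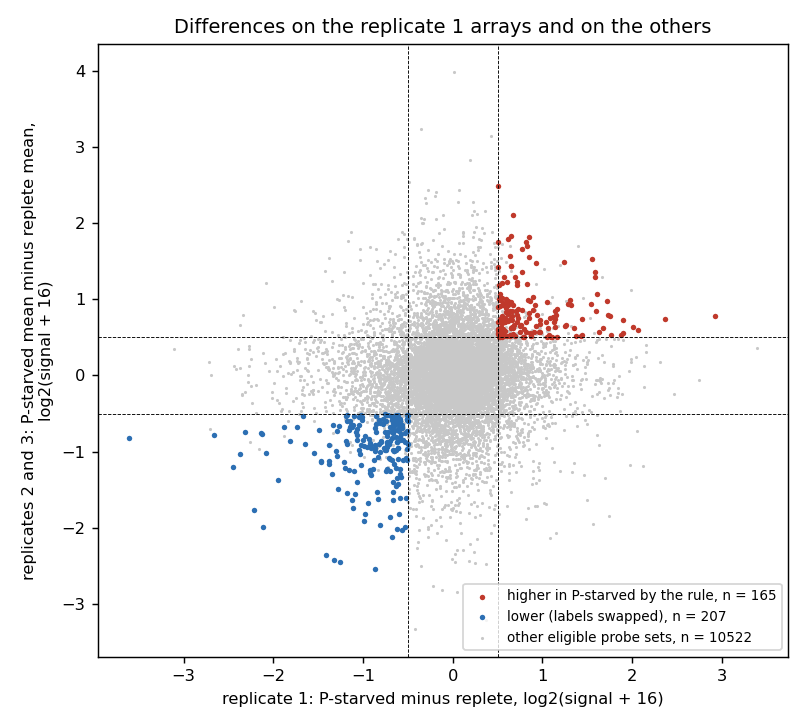
Each point is 1 eligible probe set, with the P-starved minus replete difference of the replicate 1 arrays across and that of the replicate 2 and 3 group means upwards, both on log2(signal + 16). The dashed lines mark 0.5 and -0.5, the 165 members are at upper right, 5 of them at 1 or more on both axes, and the 207 probe sets of the swapped rule are at lower left, 28 of them at -1 or less on both.

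Among the members the difference was 0.50 to 2.92 for replicate 1, with a median of 0.72, and 0.50 to 2.49 for replicates 2 and 3, with a median of 0.75. The medians over all eligible probe sets were 0.02 and 0.02. In 74 of 165 members the smaller of the 2 differences was under 0.6. In 5 members both differences were 1 or more, against 28 probe sets in the swapped direction. Just inside the threshold were probe set 259998_at with 1.10 and 0.50, EXPA15 with 0.50 and 1.43, and probe set 246267_at with 0.53 and 0.50. Just outside lay 253124_at with 0.75 and 0.497, 260357_at with 0.496 and 1.33, and AT2G16670 with 0.495 and 0.63.

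In 67 of 165 members every P-starved array lay above every replete array over both kinds of array, against 2.27% of the eligible probe sets (247), which is the background for that count and is raised in the members by the rule. In the swapped direction 81 of 207 members did not overlap either, with a background of 2.02%. In a limma comparison of the 2 groups over all 19578 probe sets, 0 members passed an adjusted p of 0.05. The fit called 0 probe sets higher (0%) after Benjamini-Hochberg adjustment, and 61 were higher and 105 lower at an unadjusted p under 0.05. With the kind of array as a block limma again called 0, and 530 were higher and 627 lower at an unadjusted p under 0.05. The fit by group alone leaves the differences between kinds of array in its error. Its median standard error over all probe sets was 0.52, against 0.26 with the block. If no probe set differed and the error fitted, a share of about 0.05 would be expected to have an unadjusted p under 0.05, higher and lower together. The unadjusted counts take no account of the number of probe sets tested and are no calls of changed probe sets.

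The members were on the whole dimmer than the eligible probe sets, and 86 of 165 had a mean signal of 50 to 100. Their mean signal ran from 50.3 to 1979 with a median of 96.9, and the median over the eligible probe sets was 118. Of the probe sets with a mean signal of 50 to 100, 1.95% were members, and 1.90% met the swapped rule. From 100 to 200, 53 of 3527 probe sets were members and 60 met the swapped rule. The members' share was 1.11% from 200 to 500 and 0.344% at 500 or more, where the swapped shares were 1.93% and 2.64%. In the brightest range there were thus 3 members and 23 probe sets of the swapped rule. The offset of 16 shrinks differences of dim probe sets, and 39 members (23.6%) had at least 1 array under a signal of 16, as had 20.2% of the eligible probe sets. Under 16 were 1, 2 and 1 members on P-starved replicates 1 to 3, against 20, 16 and 14 on replete ones, an imbalance that the rule itself favours. Of the eligible probe sets 5.18%, 6.80% and 6.54% were under 16 on P-starved replicates 1 to 3, against 5.12%, 6.45% and 6.36% on replete ones.

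**Figure D2:**
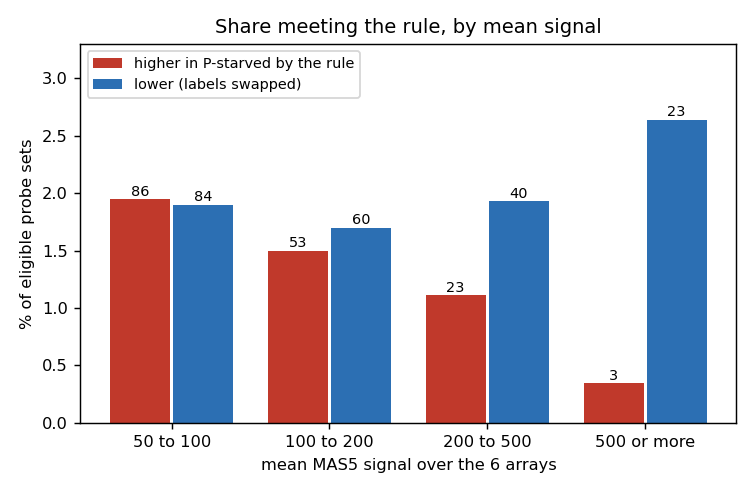
Bars give the percentage of eligible probe sets in each range of mean MAS5 signal that met the rule (left bar, higher in P-starved) or the rule with labels swapped (right bar), and the number above a bar is the count of probe sets. The left bars fall from 1.95% to 0.344% with signal, and the right bars run from 1.70% to 2.64%.

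The 3 brightest members, picked out here after their values were seen, were 252115_at, 250428_at and AT1G76200. Probe set 252115_at, for which no gene is given here, had signals of 586.3, 4428 and 3767 in P-starved replicates 1 to 3, against 371.6, 1330 and 1393 in replete replicates 1 to 3. It was far brighter on the replicate 2 and 3 arrays of both groups than on replicate 1. Probe set 250428_at had 664.2, 1588 and 1286 against 440.8, 976.4 and 777.5. AT1G76200 was brightest on replicate 1, with 1252, 312.9 and 354.8 in P-starved and 827.5, 280.3 and 139.3 in replete shoots. In all 3 the groups parted within each kind of array, which the rule requires of every member, but overlapped across the kinds.

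Of the members 107 had 1 gene in the platform's gene table, 4 had several and 54 had none. The share without a gene was 32.7%, against 42.3% of the eligible probe sets and 51.2% of those that met the swapped rule. No gene had more than 1 member. By chromosome the named members were 24, 22, 16, 19 and 26 on Arabidopsis chromosomes 1 to 5. As shares these were 22.4%, 20.6%, 15.0%, 17.8% and 24.3%, against 25.8%, 15.4%, 20.0%, 14.6% and 23.2% of the eligible genes. Of the 68 eligible plastid genes 0 was a member, where members were 1.51% of all eligible probe sets. One pair of neighbouring loci was among the named members, AT1G26740 and AT1G26750. Pseudogenes in the reference table made up 5 of the 107 named members (4.67%), against 3.38% of the eligible genes.

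In order of the smaller of the 2 differences, the first member was probe set 251769_at, which has no gene here. Its signal was 97.2, 117.1 and 141.4 in P-starved replicates 1 to 3, against 22.6, 24 and 46.9 in replete replicates 1 to 3, with differences of 1.55 and 1.53. Every P-starved array lay above every replete one. The other 4 members with both differences at 1 or more were AT3G53170, PHV, AT5G67090 and AT5G05890. The named members below are the first 25 with 1 gene in that order, from AT3G53170 down to AT2G27260, and others are given under their roles. Roles were assigned by hand and not to every gene with a known one, so the counts by role are not complete and have no background. Signals are listed for replicates 1, 2 and 3 in turn, and a pair of differences is that of replicate 1 followed by that of replicates 2 and 3, on log2(signal + 16).

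**Figure D3:**
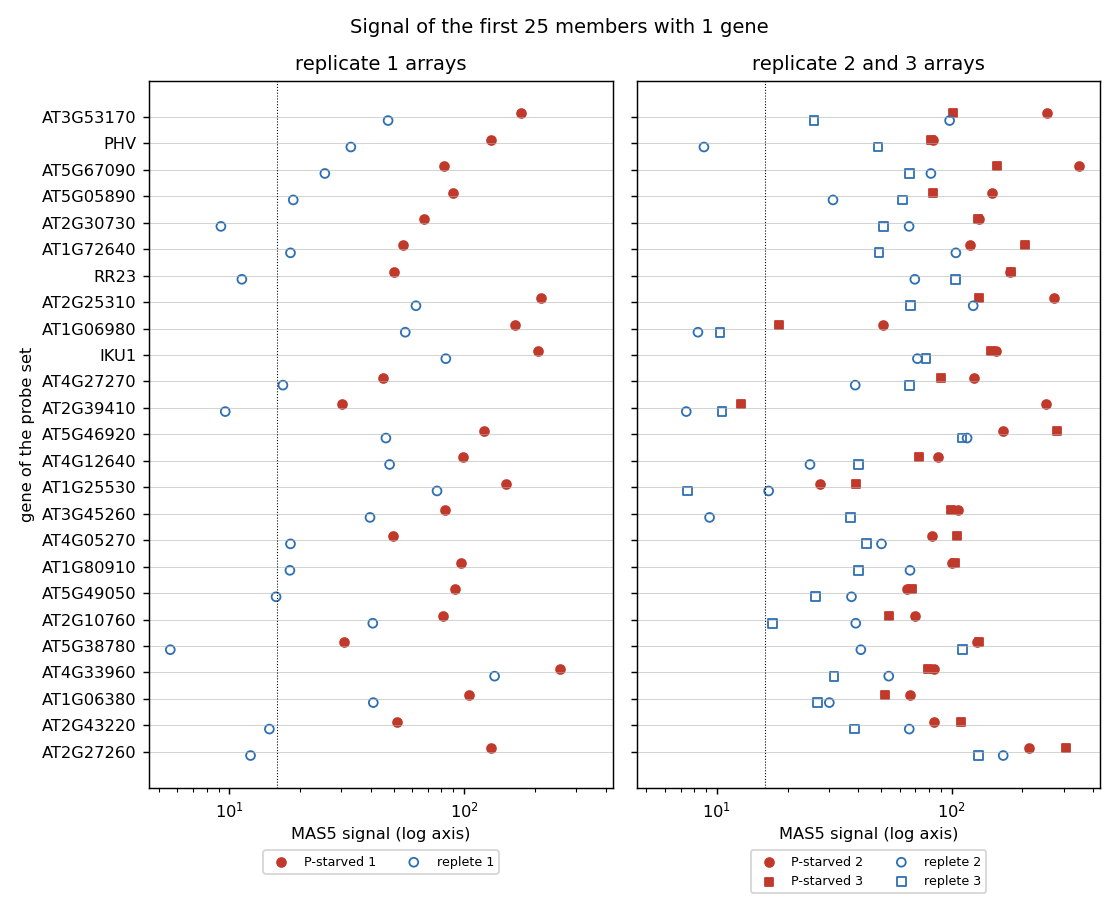
Rows are the first 25 members with 1 gene, from AT3G53170 at the top to AT2G27260, and the axis is MAS5 signal on a log scale, with the replicate 1 arrays on the left and the others on the right. Filled marks are P-starved and open marks replete arrays, and the dotted line is at 16. In 15 of the 25 genes the groups show no overlap over both panels, against 2.27% of the eligible probe sets (247). That count is raised by the rule and by the order, which uses the same differences.

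Transcription factors and other regulators of chromatin and DNA made up 12 of the 107 named members, with replicate 1 differences of 0.54 to 1.58 and replicate 2 and 3 differences of 0.51 to 2.11. PHV (AT1G30490) encodes PHAVOLUTA, a homeodomain-leucine zipper factor that sets the upper side of the leaf in Arabidopsis. Its signal was 130.5, 83.5 and 81.3 in P-starved shoots, against 32.9, 8.8 and 48.5 in replete shoots, and the differences were 1.58 and 1.30. All P-starved arrays were above all replete ones, and replete replicate 2 was under 16. AT3G45260, a zinc finger factor of the INDETERMINATE DOMAIN family, had 82.7, 106.3 and 99.2 in P-starved against 39.7, 9.3 and 36.9 in replete shoots, with differences of 0.83 and 1.70. Its groups did not overlap either. IKU1 (AT2G35230), a VQ motif protein that acts on endosperm growth and seed size, had 206.0, 153.6 and 146.6 in P-starved against 83.5, 71.4 and 77.7 in replete shoots. The groups of IKU1 stood apart, with replete arrays close together, and its differences were 1.16 and 0.88.

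RR23 (AT5G62120) is named as a response regulator, the family that receives phosphate groups in cytokinin signalling. Its signal was 50.4, 177.8 and 179.1 in P-starved shoots and 11.3, 69.6 and 103.3 in replete shoots, with differences of 1.28 and 0.94. The groups overlapped across the kinds of array, because P-starved replicate 1 lay below replete replicates 2 and 3. AT5G43410, an ethylene response factor, had the largest replicate 2 and 3 difference of these 12, at 2.11, and 0.68 for replicate 1. It was dim on replicate 1, with 24.1 in P-starved against 9.1 in replete shoots, and had 202.6 and 148.7 against 27.1 and 28.7 on replicates 2 and 3. TRY (AT5G53200), or TRIPTYCHON, a small MYB protein that keeps leaf epidermal cells from becoming hairs, had 73.9, 152.2 and 76.3 in P-starved against 24.9, 73.5 and 55.9 in replete shoots. The TRY groups did not overlap, although P-starved replicates 1 and 3 were only slightly above replete replicate 2.

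FD (AT4G35900), the bZIP partner of the flowering signal FT, had 133.6, 244.8 and 282.4 in P-starved against 85.3, 170.8 and 161.4 in replete shoots, and differences of 0.56 and 0.62. The auxin-response repressor gene IAA34 (AT1G15050) had differences of 0.70 and 0.51. Among the genes of chromatin and DNA, the histone demethylase gene LDL2 (AT3G13682) had 0.55 and 0.69 and the chromatin remodelling gene CHR34 (AT2G21450) 0.55 and 0.60. The condensin gene ATSMC2 (AT3G47460) had 0.54 and 0.63, and AT3G07930, which encodes a DNA glycosylase that removes damaged bases, 0.55 and 1.02. Of these 6 genes AT3G07930 was the only one whose groups did not overlap over all arrays.

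Genes assigned here to RNA and translation were 5 of the 107, and others of this role may be among those given none. AT5G46920 encodes nMAT2, a maturase that splices introns of mitochondrial transcripts. It had 121.6, 165.7 and 281.7 in P-starved against 46.4, 116.2 and 110.6 in replete shoots, with differences of 1.14 and 0.85 and no overlap. AT4G12640, for a protein with RNA recognition motifs, had 98.7, 87.0 and 72.5 in P-starved against 48.1, 24.9 and 40.1 in replete shoots, with differences of 0.84 and 1.00. Its groups were apart on this probe set.

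AT4G12640 has a second probe set, 254825_at, which was under the minimum signal and took no part in the rule. That probe set had 30.1, 51.6 and 3.8 in P-starved against 27.5, 2.6 and 2.5 in replete shoots, with differences of 0.08 and 0.98, and its groups overlapped. One other member gene had a second probe set. It was 2A6 (AT1G03410), named for a 2-oxoglutarate-dependent dioxygenase, whose member probe set had 127.6, 72.8 and 101.6 in P-starved against 57.6, 61.5 and 45.5 in replete shoots. Its second probe set, 264826_at, had 55.5, 114.4 and 163.0 in P-starved against 73.8, 56.8 and 82.0 in replete shoots. There the replicate 1 difference was -0.33 and that of replicates 2 and 3 was 0.86, so that the 2 probe sets of 2A6 differed in sign on replicate 1. In neither gene did the second probe set reach 0.5 on the replicate 1 arrays, while both did on the others. With 3 arrays a group an exact permutation test could not give p below 0.1, and none was run.

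The other 3 genes of this group were AT3G15010, whose product UBA2C binds RNA, with differences of 1.13 and 0.70, AT5G06770, with zinc finger and KH motifs, with 0.67 and 0.62, and AT1G26740, of the L32 family of organelle-type ribosomal proteins, with 0.60 and 1.23. The neighbour of the last, AT1G26750, had 0.52 and 0.51.

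Protein kinase genes were 4 of the 107. AT2G30730 had 67.3, 130.1 and 128.8 in P-starved against 9.2, 65.8 and 51.1 in replete shoots, with differences of 1.72 and 0.97. Its lowest P-starved array was only just above its highest replete array, at 67.3 against 65.8. AT4G13000, of the AGC family of kinases, had 236.6, 202.8 and 174.6 in P-starved against 144.5, 29.2 and 110.4 in replete shoots. Those groups stood apart, with replete replicate 2 far below the other 2 replete arrays. AT5G35960 had differences of 0.97 and 0.68, and AT4G02630 of 0.51 and 0.70.

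Protein turnover and folding was the role of 7 named members, with replicate 1 differences of 0.53 to 1.24. AT5G67090, which encodes a subtilisin-like serine protease, had 82.3, 349.5 and 155.3 in P-starved against 25.5, 81.5 and 65.8 in replete shoots, with differences of 1.24 and 1.49. Its P-starved replicate 1 was barely above replete replicate 2. AT3G22920, a cyclophilin gene, had 92.1, 108.8 and 85.6 against 49.9, 45.4 and 24.1, with a wide gap between the groups. The DnaJ co-chaperone gene AT3G47940 had differences of 0.62 and 0.71. AT4G00590, which encodes a threonine aspartase, had 0.53 and 0.55. AT5G08139, a RING protein gene, had 0.66 and 0.78, though on P-starved replicate 2 its signal of 21.1 was close to the 19.5 and 16.8 of replete replicates 2 and 3. The F-box genes AT2G42720 and AT5G51250, whose products choose proteins for ubiquitin tagging, had 1.06 and 0.62, and 0.79 and 0.51.

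The genes assigned here to enzymes of small molecules, lipids and redox reactions were 12 of the named members. AT5G05890 belongs to the UGT76C glycosyltransferases, some of which in Arabidopsis attach glucose to cytokinins. It had 89.5, 148.6 and 82.8 in P-starved against 18.7, 31.2 and 61.5 in replete shoots, with differences of 1.60 and 1.08, and the groups were apart. AT4G27270, a quinone reductase gene, had 45.0, 124.3 and 89.9 in P-starved against 16.9, 38.8 and 66.0 in replete shoots. Its differences were 0.89 and 0.86, and P-starved replicate 1 fell within the replete range. AT5G38780, of the SABATH methyltransferases that act on small acids, had 30.8, 128.3 and 130.2 in P-starved against 5.6, 41.0 and 111.0 in replete shoots. Replete replicate 3 was close to the P-starved arrays of its kind, and the differences were 1.12 and 0.77.

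AT2G39410, an alpha/beta-hydrolase gene, owed its mean signal of 53.6 and most of its replicate 2 and 3 difference to 1 array. Its signal was 30.1, 251.1 and 12.7 in P-starved shoots and 9.6, 7.4 and 10.5 in replete shoots, so that P-starved replicate 3 was near the replete level and under 16 while replicate 2 was high. Its difference for replicates 2 and 3 was 1.81, and 0.85 for replicate 1, which does not involve that array. The AT2G39410 groups did not overlap, at 12.7 against 10.5 where they came closest. LUP5 (AT1G66960), of the oxidosqualene cyclases that form triterpenes, had 64.2, 70.8 and 87.3 in P-starved against 36.2, 41.3 and 35.4 in replete shoots, with no overlap and replete arrays close together. The mitochondrial thioredoxin gene TO1 (AT2G35010) had differences of 1.63 and 0.57, and AT1G31910, for the phosphomevalonate kinase of isoprenoid synthesis, 0.53 and 0.99. AT5G13380, of the GH3 family that joins hormones to amino acids, had 0.86 and 0.55. The glycosyl hydrolase gene AT3G62710 had 1.44 and 0.54, the GDSL esterase gene AT2G19050 0.87 and 0.51, and the acyltransferase gene AT2G40230 1.17 and 0.51.

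Transport and trafficking took in 7 named members. AT1G80910 encodes CCZ1b, part of the complex that activates the Rab protein for delivery to the vacuole. It had 96.9, 100.7 and 103.0 in P-starved shoots, which lay close together, against 18.1, 66.4 and 39.9 in replete shoots, and its differences were 1.73 and 0.80. AT1G25530, an amino acid transporter gene, had 150.6, 27.6 and 39.2 in P-starved against 76.6, 16.6 and 7.5 in replete shoots. It was bright only on the replicate 1 arrays, so the groups overlapped across the kinds, and its differences were 0.85 and 0.83. AT5G11230, of the nucleotide sugar transporter family, had 0.71 and 0.80, the SEC14-like lipid transfer gene AT4G35750 0.66 and 0.85, and PRAF1 (AT1G76950), with domains that bind membrane phosphoinositides, 0.67 and 0.93. The mitochondrial carrier gene AT5G15640 had 0.51 and 0.89, and the cation efflux gene AT2G47830 had 1.37 and 0.51.

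Of the cell wall and cytoskeleton genes, 5 in number, 2 were expansins, which loosen the wall as cells grow. EXPA15 (AT2G03090) had 431.9, 501.2 and 430.1 in P-starved against 300.5, 140.5 and 187.7 in replete shoots, and it met the replicate 1 threshold by the narrowest margin of any member. EXPA21 (AT5G39260) had 83.2, 119.4 and 141.8 against 20.7, 100.5 and 73.1, with differences of 1.43 and 0.52. The EXPA15 groups were well apart, and those of EXPA21 overlapped across the kinds of array. AT5G06630, for an extensin-like wall protein, had 376.1, 462.7 and 411.3 in P-starved against 209.3, 311.1 and 250.0 in replete shoots, with no overlap. This probe set carries the suffix x, which marks probes that may bind several related transcripts. SP1L2 (AT1G69230), a SPIRAL1-like protein of cortical microtubules, had 108.6, 85.2 and 55.0 against 23.1, 51.3 and 29.2. AT2G47340, of the invertase and pectin methylesterase inhibitors, had differences of 0.52 and 0.50, and signals of 14.3 and 5.2 on P-starved and replete replicate 1.

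**Figure D4:**
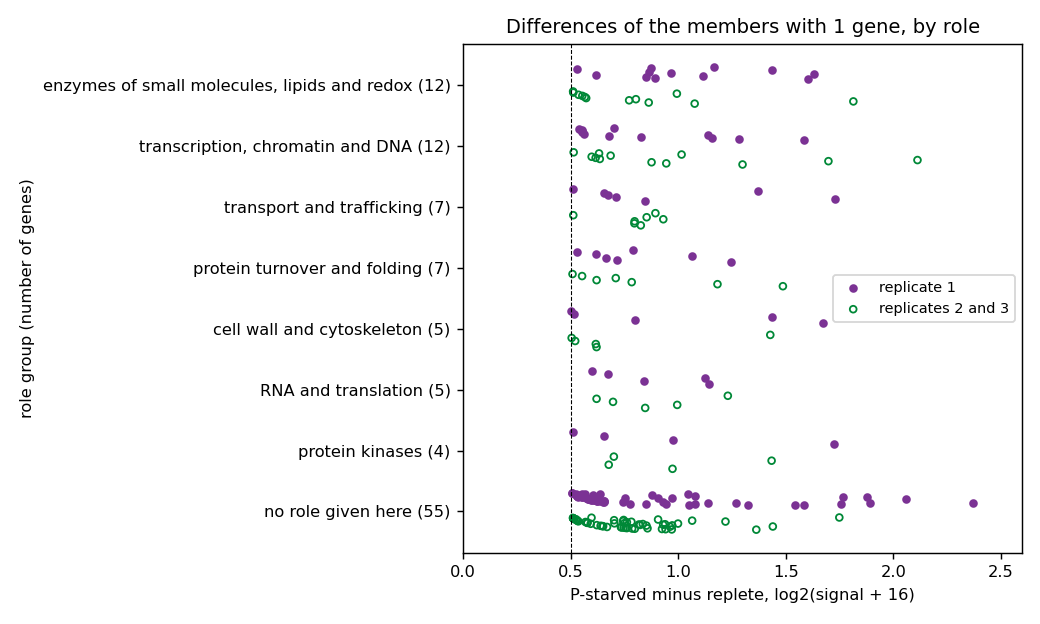
Each named member has a filled mark for its replicate 1 difference and an open mark for its replicate 2 and 3 difference, P-starved minus replete on log2(signal + 16), in rows by role with the number of genes. The dashed line is the threshold of 0.5, which sets the left edge of the points in each row, and the largest mark, at 2.37, is the replicate 1 difference of AT2G27260.

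For 55 named members no role is given here. Of the first 25, these were AT3G53170, AT1G72640, AT2G25310, AT1G06980, AT4G05270, AT5G49050, AT2G10760, AT4G33960, AT1G06380, AT2G43220 and AT2G27260. AT3G53170, the first named member in order, had 173.9, 254.0 and 100.9 in P-starved against 47.4, 97.9 and 25.9 in replete shoots, with differences of 1.58 and 1.36. Its groups did not overlap, although P-starved replicate 3 was just above replete replicate 2, and it no longer met the rule after quantile normalization within each kind of array. AT2G25310 had 211.8, 273.0 and 131.0 in P-starved against 62.3, 123.4 and 66.7 in replete shoots, with differences of 1.54 and 0.94. AT5G49050 had 91.5, 64.5 and 67.4 against 15.8, 37.4 and 26.3. In both of these genes each P-starved array lay above each replete array.

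AT1G06380 had 104.4, 66.5 and 51.9 in P-starved against 41.0, 30.1 and 26.7 in replete shoots. AT2G10760, a pseudogene in the reference table, had 81.1, 69.7 and 53.9 against 40.8, 39.0 and 17.2. The mean signal of AT2G10760 was 50.3, just over the minimum of 50. It no longer met the rule after scaling over the shared probe sets, nor without any 1 of the P-starved arrays or without replete replicate 3. On the values as deposited the groups of AT1G06380 and AT2G10760 stood apart as well. In the other 6 the groups, which the rule requires to part within each kind of array, overlapped across the kinds. AT2G27260 had 130.3, 212.4 and 306.4 in P-starved against 12.3, 165.6 and 130.2 in replete shoots, and its replicate 1 difference of 2.37 was the largest of the named members. That difference rests on 1 replete array, replicate 1, which was under 16 while the other replete arrays were over 100. AT1G72640 had 54.9, 120.0 and 204.2 against 18.2, 104.1 and 49.0, and AT2G43220 had 51.9, 84.1 and 109.4 against 14.8, 65.9 and 38.5. Both were dimmer on replicate 1 than on the other P-starved arrays. AT4G05270 had 49.7, 82.3 and 104.9 against 18.2, 50.2 and 43.4. AT4G33960 had 255.8, 84.4 and 79.0 against 134.7, 53.9 and 31.5, and AT1G06980 had 164.4, 51.1 and 18.3 against 56.1, 8.3 and 10.3. These last 2 were brighter on replicate 1 in both groups.

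Members lay on both sides in their level by kind of array. Of the 165 members 41.8% were brighter on the replicate 1 arrays than on the others, against 52.6% of the eligible probe sets. P-starved replicates 2 and 3 of a member differed by a median of 0.33 on the log2 scale and replete replicates 2 and 3 by 0.35. Over the eligible probe sets these medians were 0.32 and 0.32. The rule sets the order of these same arrays and so bears on the gaps, which therefore do not measure the noise of the members. In the fit with the kind of array as a block, the standard error of the difference was 0.18 to 0.84 for the 25 genes named first. Its median over the members was 0.28, and it comes from the same values that the rule used.

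Few phosphate starvation genes known from Arabidopsis could be looked up. Of a list of 40, 2 could be found by name with a value on each array, both were eligible and 0 of 2 was a member. Members were 1.51% of all eligible probe sets, so 0 of 2 is no result about these genes. LPR1 (AT1G23010), a multicopper oxidase that acts in phosphate sensing by the Arabidopsis root tip, met every part of the rule except the order of arrays. Its signal was 63.7, 56.5 and 74.9 in P-starved shoots, against 25.9, 25.7 and 58.5 in replete shoots, and its differences were 0.93 and 0.54. P-starved replicate 2 was just under replete replicate 3. AT1G63010, which encodes a vacuolar phosphate transporter, had differences of -0.45 and 0.05. The list's genes for the SPX proteins that hold back PHR1, for PHT1 transporters and for lipid remodelling were not measured under a name here. Nothing is therefore reported on their place among the members.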

How the data were processed

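Per the labels, total RNA was labelled with biotin, and per the submitters' processing notes the deposited signal intensity is from MAS5, on a linear scale. The sources used here state neither its version nor the probe set definition or masking. The 2% trimmed mean of every array was 100.0, so the values were used as deposited. Control probe sets (64) were left out. Precision is limited by having 3 arrays per group, and detection calls took no part. The rule was applied to log2(signal + 16), which understates changes of dim probe sets. limma 3.58.1 in R 4.3.3 (lmFit, eBayes with trend, group only, two-sided) was run over all 19578 probe sets. Its code was checked on simulated data that held no difference between kinds of array. That check does not give the power of the fit in these data.

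The members, the gene lists and the tests were chosen with earlier results of these data known. Genes came from the platform's table and symbols and loci from the TAIR10.1 gene table, in which all 107 genes of the members matched. The 25 genes named first follow the smaller of the replicate 1 and the replicate 2 and 3 difference, and at the threshold the nearest 3 on each side are given. Counts of roles by words in gene descriptions were planned and not made, because 8.27% of the eligible genes have a description. Roles were instead assigned by hand to the members after their values were seen, so they have no background count. Genes for which no role is given may still have a known one, so the role counts are not complete. No coordinates are printed, since the labels name no build.

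Samples of one number deviated together from their group means (r across probe sets of 0.839, 0.551 and 0.530 for numbers 1 to 3). P-starved replicate 2 with replete replicate 3, and P-starved replicate 3 with replete replicate 2, gave 0.524 and 0.533, which is as high as the same-numbered pairs of replicates 2 and 3. Pairs of a replicate 1 array with a replicate 2 or 3 array of the other group gave -0.683 to -0.662. For number 1 the replicate number and the kind of array cannot be told apart.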

Additional observations from a re-analysis of the deposited data

How the results depend on the processing

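Each count below is of probe sets higher, followed by the count with labels swapped, where the rule as given found 165 and 207. An offset of 64 left 48 and 107, and 4 gave 238 and 251. A minimum mean signal of 100 left 79 and 123, and 25 gave 247 and 277. A minimum difference of 0.4 gave 291 and 328, and 0.75 left 37 and 71. Asking for no overlap over all arrays left 67 and 81. Scaling over the shared probe sets gave 166 and 200 (164 of the 165 members kept), and quantile normalization within each kind of array gave 144 and 213 (137 kept). Leaving out 1 array gave 221 to 1086 higher and 255 to 1002 lower. Without P-starved or replete replicate 1, which leaves only the replicate 2 and 3 condition of the rule, there were 1086 and 1084 higher and 1002 and 996 lower. Without P-starved replicate 2 there were 297 and 360, and without replete replicate 2 there were 277 higher. Of the members 117 to 161 still met the rule on the arrays left. More probe sets were lower than higher under every alternative except leaving out either replicate 1 array. The median difference of the members was 0.82, was 0.54 with the offset of 64, and was 0.75 to 0.95 under the other alternatives. Of the 25 genes named first 13 met the rule under both offsets and both scalings, 23 without the offset of 64. limma called 0 probe sets higher with the replicate block (462 at an unadjusted p under 0.05) and under every other alternative run, so the paired fit changed no call.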
